A study of Homo sapiens with 4 samples.

Results

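The zinc finger cluster of 19p12 is a run of closely related genes on the short arm of chromosome 19 that encode C2H2 zinc finger proteins. The cluster was taken as 33 named genes, and a member was measured where the array carried a probe set annotated to that gene alone. This held for 24 members with 54 probe sets, out of 19775 genes and 54675 probe sets in all. The 9 members ZNF66, ZNF676, ZNF714, ZNF724, ZNF726, ZNF728, ZNF729, ZNF730 and ZNF737 had no such probe set and are not analysed here. RefSeq placed all 33 on chromosome 19, and their order there runs from ZNF506 to ZNF254.

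RNA came from BT474, an established human breast cancer line of luminal type with amplified ERBB2. One group of 2 arrays was treated for 24 h with 0.5 mM AICAR, a nucleoside that cells convert into an AMP mimic and activator of the energy sensor AMPK, and the other group of 2 arrays received vehicle for 24 h. Both groups were the same line in regular DMEM, with no genetic change named in the labels. The 8 luminal markers ERBB2, GRB7, ESR1, GATA3, KRT8, KRT18, KRT19 and EPCAM averaged between 9.28 and 14.15 (log2) over the 4 arrays, and 7 of them did not pass the test between the groups. ESR1, the oestrogen receptor, fell: it read 10.41 and 10.38 with AICAR, against 10.74 and 10.67 with vehicle (log2 -0.31, limma adjusted p = 0.0411). The 8 stromal, endothelial and blood markers averaged between 4.54 and 7.23 over the 4 arrays. The labels number 2 replicates in each group without saying that each was its own culture; the p-values therefore reflect array-to-array spread, which may be only technical. In RNA from a whole culture, fewer cells that express a gene and less RNA per cell cannot be told apart.

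Most proteins of this family join an array of zinc fingers, which read DNA, to a KRAB domain. KRAB domains recruit the corepressor TRIM28, which brings in the histone methyltransferase SETDB1 and HP1 proteins and so silences chromatin, in large part at transposable elements. The genes of this cluster multiplied by tandem duplication in primates, and ZNF91 and ZNF93 are known in human cells for repressing SVA and LINE-1 retrotransposons. Because the copies are so alike, a microarray probe designed for a member can match a neighbour; Affymetrix marks probe sets whose probes match other sequences with the suffix _x_at and those shared by several transcripts with _s_at or _a_at.

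The promoters of the members were alike in sequence. RefSeq promoter windows, with 250 bases before and 50 bases after the start, were at hand for 26 members (27 windows, since ZNF682 had 2 starts). The 140 bases before the start are shown for the members with the largest differences and for ZNF93, followed by ZNF626 and ZNF429, which did not pass the test. Capitals mark exact matches to TGTCACTC, to CCAATCAG, which holds the CCAAT box, and to CTTCCGG, which holds the core recognised by ETS factors.
ZNF91 promoter (GRCh38.p14, chr19:23395472-23395611, minus strand): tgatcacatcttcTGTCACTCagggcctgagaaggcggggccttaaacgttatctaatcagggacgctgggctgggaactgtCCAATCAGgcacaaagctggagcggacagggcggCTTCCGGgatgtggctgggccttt
ZNF43 promoter (GRCh38.p14, chr19:21836183-21836322, minus strand): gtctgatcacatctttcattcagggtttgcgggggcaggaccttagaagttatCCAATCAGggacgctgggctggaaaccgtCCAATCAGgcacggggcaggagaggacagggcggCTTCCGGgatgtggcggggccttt
ZNF257 promoter (GRCh38.p14, chr19:22052344-22052483, plus strand): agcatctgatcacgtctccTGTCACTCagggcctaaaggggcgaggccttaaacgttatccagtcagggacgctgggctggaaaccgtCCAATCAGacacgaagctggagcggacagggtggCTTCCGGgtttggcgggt
ZNF100 promoter (GRCh38.p14, chr19:21767580-21767719, minus strand): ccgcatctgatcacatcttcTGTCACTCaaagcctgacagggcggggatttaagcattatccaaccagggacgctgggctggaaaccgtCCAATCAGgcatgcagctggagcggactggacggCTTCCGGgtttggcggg
ZNF93 promoter (GRCh38.p14, chr19:19900806-19900945, plus strand): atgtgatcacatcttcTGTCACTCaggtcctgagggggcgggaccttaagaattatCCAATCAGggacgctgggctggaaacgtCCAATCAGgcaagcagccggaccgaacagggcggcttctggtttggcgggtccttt
ZNF626 promoter (GRCh38.p14, chr19:20661572-20661711, minus strand): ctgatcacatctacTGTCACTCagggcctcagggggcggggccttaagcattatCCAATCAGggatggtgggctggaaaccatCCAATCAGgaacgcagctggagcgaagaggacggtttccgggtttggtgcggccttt
ZNF429 promoter (GRCh38.p14, chr19:21505462-21505601, plus strand): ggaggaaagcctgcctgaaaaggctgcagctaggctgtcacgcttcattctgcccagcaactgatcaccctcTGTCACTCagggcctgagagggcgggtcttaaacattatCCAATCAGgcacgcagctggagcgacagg

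Over these 140 bases, pairs of member promoters were identical at a median of 77.0% of aligned positions (325 pairs, range 36.4% to 92.9%). The ZNF91 promoter matched those of the 25 other members at a median of 81.6% (range 36.4% to 90.7%). It matched those of 379 other ZNF genes at a median of 50.6% (range 40.4% to 87.1%), so the ranges overlapped. The 4 motifs were picked by reading these promoters, so their counts describe the family and test nothing. Searched on either strand, CCAATCAG stood in 26 of 27 member windows (96.3%), against 3.97% of all 35116 promoter windows, and stood at 2 or more places in 14 (51.9%, against 0.487%). TGTCACTC stood in 24 member windows (88.9%, against 1.30%), CTTCCGG in 21 (77.8%, against 10.3%), and CTTTGTCTC, which in most of its windows began within a few bases of the start and is not marked in the stretches shown, in 21 (77.8%, against 0.638%). All 4 together occurred in 15 member windows (55.6%) and in 0.0626% of all windows. The 492 windows of other ZNF genes held CCAATCAG in 12.6% and at 2 or more places in 4.67%. They held TGTCACTC in 5.49%, CTTCCGG in 33.1%, CTTTGTCTC in 2.85% and all 4 in 1.22%. The motifs did not overlap one another in the stretches shown. Members with 2 copies of CCAATCAG included ZNF43 at a log2 difference of -0.65 and ZNF626 at -0.04, and members with 1 copy included ZNF91 at -1.43 and ZNF254 at 0.08 (AICAR minus vehicle).

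With AICAR, 8 of the 16 members bright enough to test fell and 0 rose (limma on all 13842 genes tested, adjusted p under 0.05), against 5.19% of all genes tested that fell and 4.63% that rose. At an unadjusted p under 0.05, 10 members were lower and 0 higher, against 13.3% of all genes for lower values. The 8 that fell were ZNF91, ZNF43, ZNF431, ZNF253, ZNF506, ZNF708, ZNF93 and ZNF681. The median log2 difference (AICAR minus vehicle) over the 16 tested members was -0.33, against 0.01 over all genes tested, and 14 of the 16 differences were negative. Each gene is represented by its probe set of highest mean, and genes with a mean below the 30th percentile, log2 6.115, were left out as dim.

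**Figure D1:**
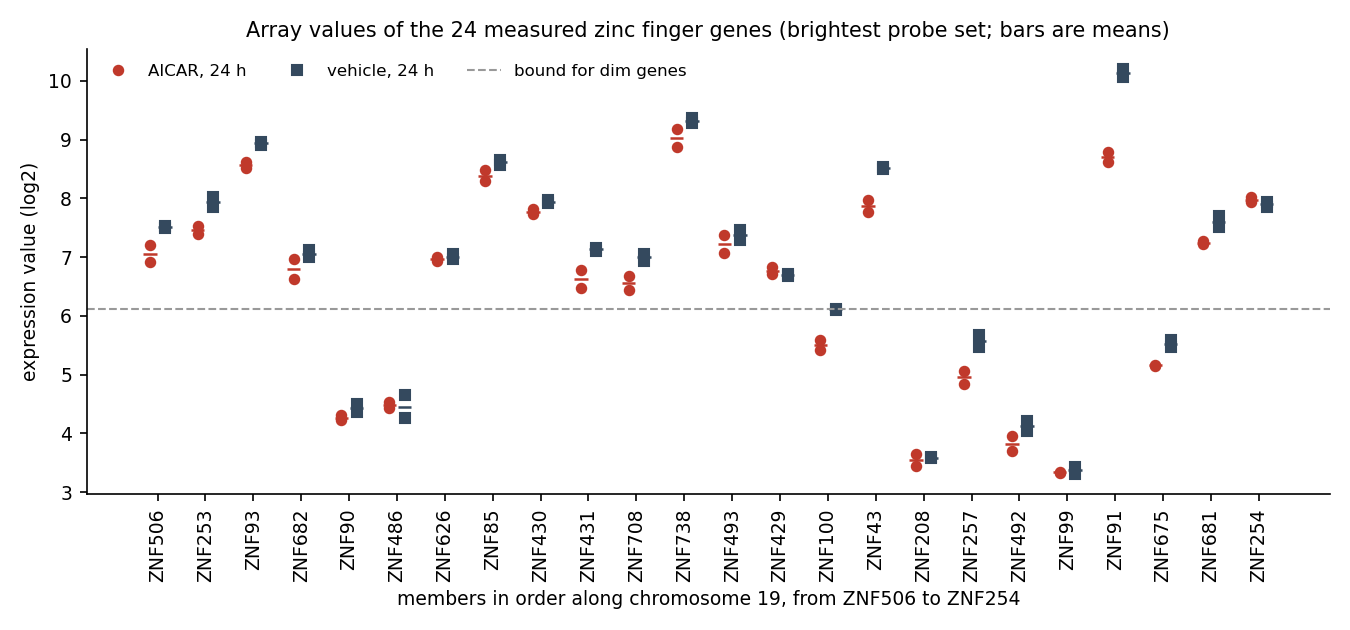
Log2 expression values on the 2 AICAR arrays (circles) and the 2 vehicle arrays (squares) for the 24 measured members, in order along chromosome 19; short bars are group means and the dashed line is the bound for dim genes at 6.115. Both AICAR values lay below both vehicle values in 17 members, the widest gap being that of ZNF91.

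ZNF91, the SVA repressor, had the largest difference of the cluster. It read 8.79 and 8.62 (log2) on the AICAR arrays, against 10.06 and 10.19 on the vehicle arrays. The groups lay far apart, and the members' median SD within a group was 0.106. The fall was 2.69-fold (log2 -1.43, SE 0.0893, limma adjusted p = 0.00320). Of the 8 calls, only that of ZNF91 was kept in each of the 4 fits of the gene table that left out 1 array. It rests on 1 of 7 probe sets, however: with all 7 averaged, ZNF91 differed by -0.06 and did not pass (limma adjusted p = 0.562).

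ZNF43 read 7.77 and 7.98 (log2) with AICAR, against 8.54 and 8.50 with vehicle. It fell 1.57-fold (log2 -0.65, SE 0.0886, adjusted p = 0.0131, limma). Its single probe set carries the suffix _x_at. ZNF431 read 6.48 and 6.77 with AICAR, against 7.11 and 7.16 with vehicle (log2 -0.51, adjusted p = 0.0356), and its 3 probe sets each gave a negative difference. In both genes the AICAR arrays lay below the vehicle arrays, and AICAR replicate 1 was the lowest of the 4.

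At the start of the cluster, 3 of its first 4 genes fell. ZNF506 read 6.91 and 7.20 (log2) with AICAR, against 7.54 and 7.50 with vehicle (log2 -0.46, limma adjusted p = 0.0435). ZNF253 read 7.53 and 7.39 with AICAR, against 8.03 and 7.86 with vehicle (log2 -0.48, limma adjusted p = 0.0256). ZNF93, the LINE-1 repressor, read 8.63 and 8.51 with AICAR, against 8.97 and 8.91 with vehicle, a 1.29-fold fall (log2 -0.37, SE 0.0746, limma adjusted p = 0.0328). The groups did not overlap in any of the 3. ZNF682, which lies between ZNF93 and ZNF90, had AICAR values below both vehicle values and did not pass (log2 -0.26, 95% confidence interval -0.55 to 0.04, limma adjusted p = 0.241).

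Of the remaining called members, ZNF708 read 6.44 and 6.68 (log2) with AICAR, against 7.06 and 6.93 with vehicle (log2 -0.44, limma adjusted p = 0.0458). Like that of ZNF43, its single probe set carries the suffix _x_at. ZNF681 read 7.23 and 7.27 with AICAR, against 7.70 and 7.51 with vehicle (log2 -0.36, limma adjusted p = 0.0478). Both had AICAR values below the vehicle range. The other ZNF681 probe set, 236672_at, read 4.65 and 4.73 with AICAR, against 4.60 and 4.60 with vehicle, the opposite order (log2 0.09). With both averaged, ZNF681 differed by -0.13 and did not pass (limma adjusted p = 0.269). ZNF738 did not pass, although its difference was of like size: it read 8.87 and 9.17 with AICAR, against 9.37 and 9.28 with vehicle (log2 -0.30, 95% confidence interval -0.57 to -0.04, limma adjusted p = 0.144).

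**Figure D2:**
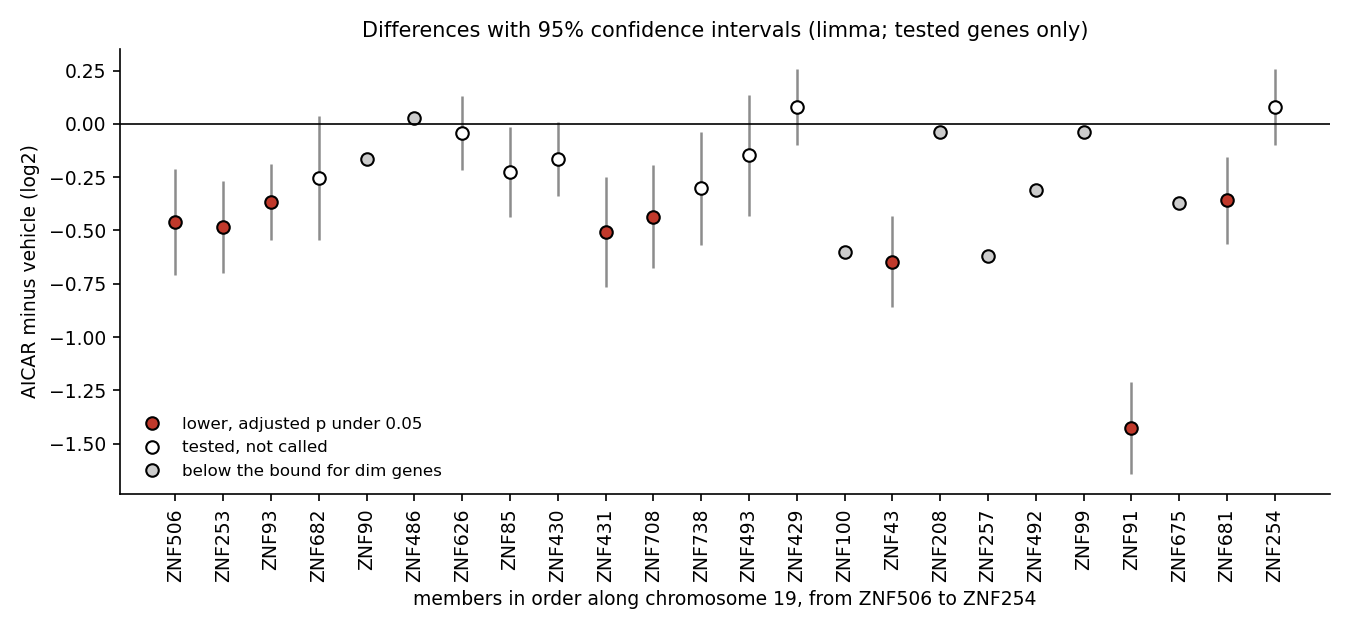
Log2 differences, AICAR minus vehicle, of the 24 measured members in order along chromosome 19, with 95% confidence intervals from limma for the 16 tested; red marks the 8 called members, white the 8 tested members that did not pass and grey the 8 below the bound for dim genes. The called members run from -0.36 for ZNF681 to -1.43 for ZNF91.

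The other 7 tested members had differences from -0.26 to 0.08 and did not pass. ZNF85 and ZNF430, which stand side by side in the order, differed by -0.23 (95% confidence interval -0.44 to -0.02) and -0.17 (-0.34 to 0.01), and in both the AICAR arrays lay below the vehicle arrays. ZNF493 differed by -0.15 (-0.43 to 0.14), with overlapping groups. ZNF626, ZNF429 and ZNF254 differed by -0.04 (-0.22 to 0.13), 0.08 (-0.10 to 0.26) and 0.08 (-0.10 to 0.26), also with overlapping groups. For these 3 the intervals exclude a fall of the size seen in ZNF431 or ZNF43, on the probe set used.

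A further 8 measured members were too dim for that test and were taken into a fit of all 19775 genes without the dim filter. In that fit 5 members fell, against 1.8% of all genes: ZNF91, ZNF43, ZNF253, and the dim ZNF100 and ZNF257. ZNF100 read 5.43 and 5.59 (log2) with AICAR, against 6.10 and 6.12 with vehicle (log2 -0.60, limma adjusted p = 0.0259). ZNF257 read 4.84 and 5.06 with AICAR, against 5.68 and 5.46 with vehicle (log2 -0.62, limma adjusted p = 0.0426). These genes stand on either side of ZNF43 and ZNF208 in the chromosome order.

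ZNF675, known for binding TRAF6 and restraining its signalling, read 5.15 and 5.17 (log2) with AICAR, against 5.58 and 5.47 with vehicle, and did not pass (log2 -0.37, limma adjusted p = 0.0621 without the dim filter). ZNF492 read 3.95 and 3.69 with AICAR, against 4.05 and 4.22 with vehicle (log2 -0.31, limma adjusted p = 0.200 without the dim filter). ZNF90, ZNF486, ZNF208 and ZNF99 differed by -0.16 to 0.03, at mean levels of 3.36 to 4.47.

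Over all 24 measured members, 21 differences were negative and 3 positive, with a median of -0.31 (log2), against 0.02 over all 19775 genes. Both AICAR values lay below both vehicle values in 17 members and above them in 0, while the groups overlapped in 7. Over all 19775 genes, 4533 (22.9%) had both AICAR values below, 5467 had both above and 9775 overlapped. The 17 members lay along the whole cluster, in runs of 5 (ZNF506 to ZNF90), 5 (ZNF85 to ZNF738), 2 (ZNF100 and ZNF43), 2 (ZNF257 and ZNF492) and 3 (ZNF91 to ZNF681) among the measured genes. Overlapping members stood between these runs, and ZNF254 closed the order.

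Probe sets of a gene gave further readings of the same arrays. Of the 15 members with several probe sets, 9 had only negative differences, and the second brightest probe set was negative in 11. Of the probe sets other than the brightest, 19 of 30 were negative, and 18 of 24 without those of ZNF91, against 47.4% of all probe sets. In a fit of every probe set on its own, 4 of the members' 54 fell and 0 rose, against 0.888% and 0.599% of all 54613 probe sets tested; they belonged to ZNF91, ZNF43, ZNF100 and ZNF93. The called ZNF93 probe set, 1569241_a_at, read 5.18 and 5.04 (log2) with AICAR, against 5.87 and 5.96 with vehicle (log2 -0.80, limma adjusted p = 0.0217). That was a wider gap than in its 2 brighter probe sets, at -0.37 and -0.41. The dimmest ZNF93 probe set, 1569240_at, annotated to the same target as 1569241_a_at, differed by 0.01 with overlapping groups.

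**Figure D3:**
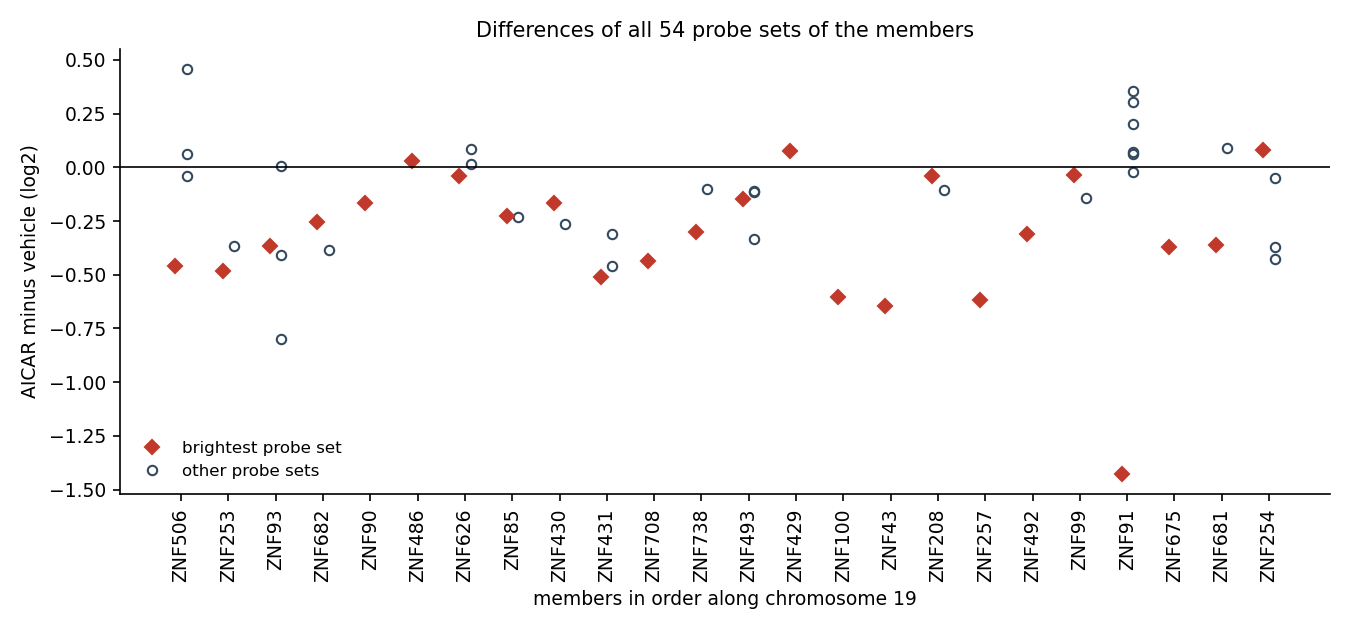
Log2 differences, AICAR minus vehicle, of all 54 probe sets of the 24 measured members in order along chromosome 19; diamonds are the brightest probe set of a gene and open circles the others. The probe sets of ZNF253, ZNF431, ZNF85 and ZNF493 lie on the same side of 0, while those of ZNF91 and ZNF506 lie on both sides.

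The 7 probe sets of ZNF91 did not agree. The brightest, 206059_at, is annotated to the RefSeq mRNA and was the only one that fell. The next, 236128_at, read 7.10 and 7.25 (log2) with AICAR, against 6.90 and 6.85 with vehicle (log2 0.31, limma adjusted p = 0.175), and 1562055_at read 5.59 and 5.46 with AICAR, against 5.20 and 5.13 with vehicle (log2 0.36, limma adjusted p = 0.121). In both the AICAR arrays lay above the vehicle arrays, the opposite of 206059_at. The other 4 differed by -0.02 to 0.20. Which transcripts each probe set detects was not tested.

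**Figure D4:**
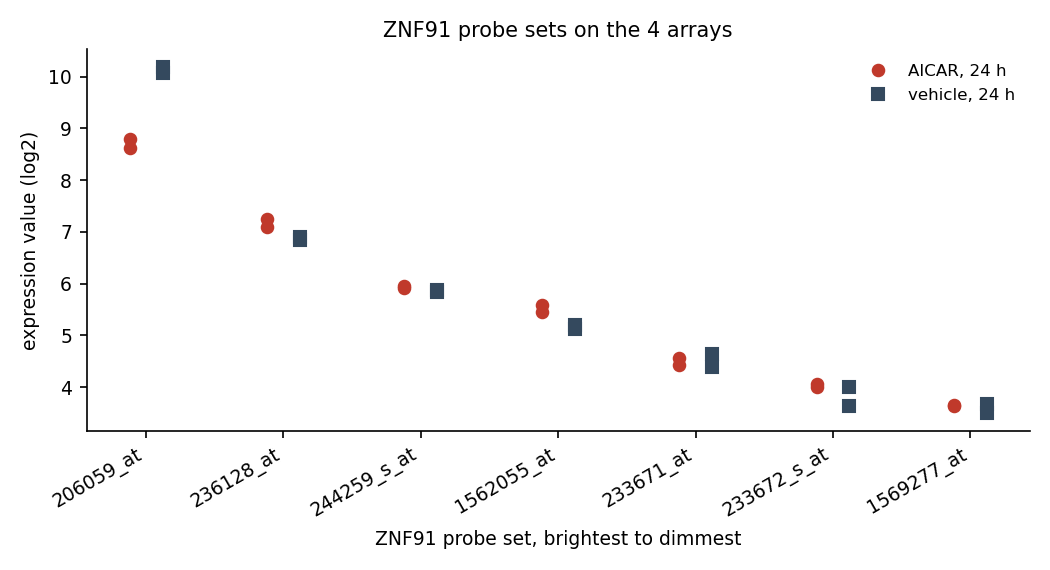
Log2 expression values of the 7 ZNF91 probe sets, brightest to dimmest, on the 2 AICAR arrays (circles) and the 2 vehicle arrays (squares). Only 206059_at, at 8.79 and 8.62 with AICAR and 10.06 and 10.19 with vehicle, shows the fall, and 236128_at and 1562055_at lie higher with AICAR.

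Elsewhere the disagreement was smaller. The fall of ZNF506 rests on its brightest probe set alone. The second brightest, 221626_at, read 6.76 and 6.82 (log2) with AICAR, against 6.89 and 6.56 with vehicle (log2 0.06), with overlapping groups. The dimmest, 221625_at, differed by -0.04. The dim 1568720_at read 4.58 and 4.62 with AICAR, against 4.23 and 4.06 with vehicle (log2 0.46, limma adjusted p = 0.0737). For ZNF254 the order was reversed: its brightest probe set differed by 0.08, whereas 1559449_a_at read 6.93 and 6.47 with AICAR, against 7.03 and 7.22 with vehicle (log2 -0.42, limma adjusted p = 0.255). The 3 probe sets of ZNF626 differed by -0.04, 0.08 and 0.02.

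Negative differences were found in probe sets with and without a suffix for matches to other sequences. Of 29 probe sets with the plain suffix _at, 20 differences were negative and 15 had both AICAR values below both vehicle values; over all probe sets with that suffix, 46.0% were negative and 21.4% had both AICAR values below. Of 19 with the suffix _x_at, 16 were negative and 10 had both AICAR values below, against 48.5% and 23.9% of all probe sets with that suffix. Over all 54613 probe sets of any suffix, 47.4% were negative and 23.3% had both AICAR values below. With plain probe sets only, 5 of 12 tested members fell (ZNF91, ZNF100, ZNF253, ZNF431 and ZNF506), against 4.2% of all genes. With a gene's probe sets averaged, 5 of 14 tested members fell (ZNF43, ZNF100, ZNF253, ZNF93 and ZNF708), against 5% of all genes, and ZNF91 did not.

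In the fit of every probe set on its own, no probe set of any gene was called lower once 1 array was left out. Those fits cannot single out ZNF91, whose call was lost there too. Of the 8 calls, all but that of ZNF91 were lost in at least 2 of the 4 fits of the gene table without 1 array. Without AICAR replicate 1, 4 members fell, and without AICAR replicate 2, 6 fell, against 3.12% and 2.62% of all genes. Without vehicle replicate 1 or vehicle replicate 2, only ZNF91 stayed called, against 0.217% and 0.368% of all genes. The median difference of the 16 tested members stayed negative in these fits, at -0.23, -0.40, -0.26 and -0.37. The members also moved together within a group: AICAR replicate 1 read lower than AICAR replicate 2 in 20 of 24 members and in 50.5% of all genes, and vehicle replicate 1 read higher than vehicle replicate 2 in 18 members and in 50.8% of all genes. The part of these array differences in the result was not tested, beyond the fits without each array.

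Other zinc finger genes gave a smaller shift. Of 324 other tested genes with a ZNF symbol, 27 fell and 5 rose (limma), 8.33% and 1.54%, with a median difference of -0.06 (log2) and 65.1% negative. Those elsewhere on chromosome 19 had 10 lower and 2 higher genes of 150 (median -0.08), and those on other chromosomes 17 lower and 3 higher of 174 (median -0.04). Among 872 tested genes of chromosome 19 that are not ZNF genes, 26 fell and 21 rose, with a median of 0.01. The difference between the members and these sets was not tested.

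**Figure D5:**
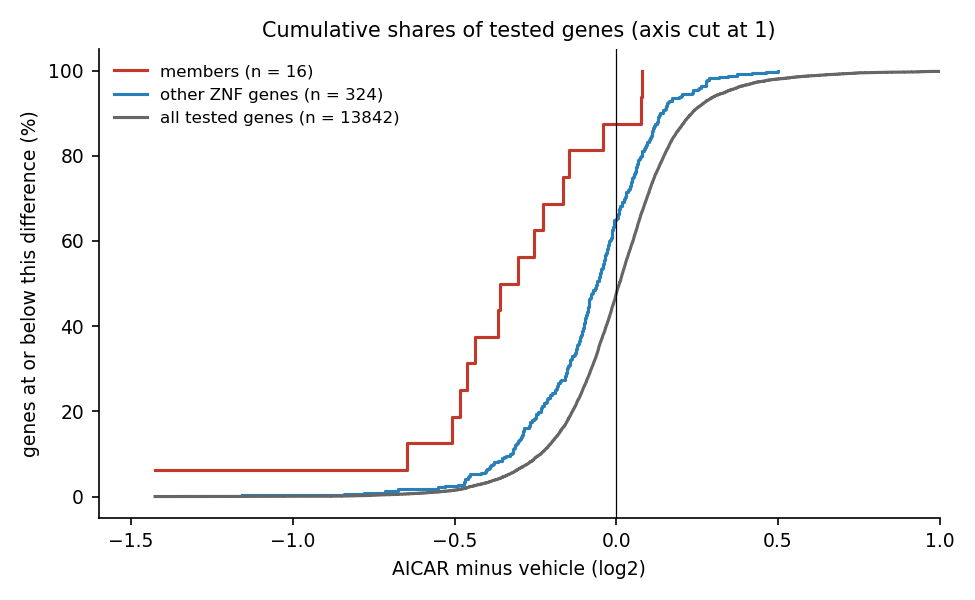
Cumulative shares of log2 differences, AICAR minus vehicle, for the 16 tested members (red), 324 other tested ZNF genes (blue) and all 13842 tested genes (grey), with the axis ending at 1. The medians are -0.33, -0.06 and 0.01, and the differences of the members run from -1.43 to 0.08.

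The non-member genes interspersed in the cluster, mostly long non-coding RNAs and pseudogenes, did not pass. Of 12 measured, 5 were bright enough to test, with differences from -0.08 to 0.06 (log2). They gave 0 calls in limma and 0 at an unadjusted p under 0.05. Over all genes tested, 5.19% fell and 4.63% rose, and 13.3% were lower at that unadjusted p. With 5 genes, 0 calls cannot be told from those shares. The dim LINC00664 was the lowest of the 12, at -0.45 (limma without the dim filter, unadjusted p = 0.0368, adjusted p = 0.219). The zinc finger pseudogene ZNF826P differed by -0.15. In each of these 2 the AICAR arrays lay below the vehicle arrays.

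Genes of the silencing machinery that KRAB proteins call on were examined as a list of 36 measured genes. Of the 35 tested, 3 fell and 0 rose (limma), 8.57% lower, against 5.19% of all genes tested that fell and 4.63% that rose, with a median difference of -0.14 (log2). TRIM28, the corepressor itself, read 9.21 and 9.03 with AICAR, against 9.38 and 9.37 with vehicle, and did not pass (log2 -0.25, 95% confidence interval -0.45 to -0.06, limma adjusted p = 0.110). SETDB1, its histone methyltransferase, differed by 0.01 (-0.18 to 0.20), with overlapping groups. CBX5, which encodes the heterochromatin protein HP1 alpha, was the called gene of the 7 in the TRIM28, SETDB1 and HP1 list: it read 10.23 and 10.07 with AICAR, against 10.74 and 10.70 with vehicle, a 1.49-fold fall (log2 -0.57, SE 0.0806, limma adjusted p = 0.0138).

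Of 9 genes of H3K9 and DNA methylation, 2 fell, against 5.19% of all genes tested. UHRF1, which guides DNA methylation to newly replicated DNA, read 9.80 and 9.84 (log2) with AICAR, against 10.35 and 10.34 with vehicle (log2 -0.52, limma adjusted p = 0.0109). SUV39H2, a histone methyltransferase, read 9.15 and 9.17 with AICAR, against 9.54 and 9.51 with vehicle (log2 -0.36, limma adjusted p = 0.0248). Without the dim filter SUV39H2 did not pass (limma adjusted p = 0.0536), which left 2 silencing genes lower, against 1.8% of all genes. In both genes the AICAR arrays lay below the vehicle arrays.

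In the HUSH and MORC list 0 of 6 passed (1 lower at an unadjusted p under 0.05), with TASOR at -0.28 (limma adjusted p = 0.112). Over all genes tested, 5.19% fell and 13.3% were lower at that unadjusted p. In lists this short, 0 calls cannot be told from that share. In the NuRD list 0 of 10 passed (2 lower unadjusted), with the deacetylase HDAC2 at -0.28 (limma adjusted p = 0.134). In the list of proteins that mark the 3′ ends of zinc finger genes 0 of 3 passed (0 unadjusted). ZNF274, which binds those ends, differed by -0.03, ATRX by -0.01 and DAXX by -0.11. Unadjusted, 11 of all 35 silencing genes were lower. These included 3 of 7 in the TRIM28, SETDB1 and HP1 list and 5 of 9 in that of H3K9 and DNA methylation. With a trend and robust variances 10 of the 35 fell, against 9.82% of all genes. Without vehicle replicate 1 or 2, 0 did, against 0.217% and 0.368% of all genes.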

How the data were processed

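Total RNA was labelled with biotin by a standard Affymetrix protocol, per the labels. Each deposited number is a log2 expression value of a probe set, normalized by the authors. The submitters' processing notes name Affymetrix Expression Console; no version, algorithm or background correction was stated. Values ran from 2.95 to 15.3 and were used as deposited; array medians lay between 6.37 and 6.40.

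Probe sets were named from the platform annotation of a single gene, with symbols updated through Entrez IDs by the RefSeq table of GRCh38.p14, also the source of gene order and promoters. The 2 member probe sets listed for several genes and 62 controls were left out. The AICAR minus vehicle difference came from limma 3.58.1 in R 4.3.3 (lmFit, eBayes) over 13842 genes, with Benjamini-Hochberg adjustment, two-sided; rose, fell and called mean an adjusted p under 0.05. The fit was tested on simulated data. An exact permutation test of 2 against 2 arrays cannot give a p below 0.333. Precision is limited by the number of arrays; the median SE over genes was 0.0772.

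Per-array values are given for called members, members with a called probe set, and members differing by 0.3 or more (log2); other genes with values were chosen after these were seen. The members and lists were chosen with earlier results of these data known. Promoters were aligned with Biopython 1.88. Alternatives were other dim filters, normalizations, variance moderation, probe set choices, thresholds, the replicate block and leaving out each array.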

Additional observations from a re-analysis of the deposited data

How the results depend on the processing

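Of the 8 members that fell, 2 were also at least 1.5-fold lower, against 0.867% of all genes tested. The count of 8 was 5 without the filter on dim genes (of 24, with 1.8% of all genes lower). It was 5 with a dim filter at the 50th percentile (of 9, with 10% lower). It was also 5 with averaged probe sets (of 14, with 5% lower) and with plain probe sets only (of 12, with 4.2% lower). It ranged from 1 to 6 over the fits without 1 array. The median difference of -0.33 became -0.22 with averaged probe sets, and otherwise lay between -0.40 and -0.23. The members' 4 lower probe sets became 7 with a probe set filter at the 50th percentile (5.52% of all). With a trend and robust variances, 10 were lower and 1 higher (4.62% and 2.64% of all probe sets). At an adjusted p under 0.1 the counts were 9 and 1 (2.73% and 1.64%). In the fits without 1 array, no probe set of any gene was called lower. The 3 lower silencing genes became 10 with a trend and robust variances (9.82% of all genes, against 5.19%). With averaged probe sets 5 of 36 were lower, against 5% of all genes. At 1.5-fold or more 0 of 35 were, against 0.867%, and in a list this short 0 cannot be told from that share. The count was lower in each fit without 1 array, as was the share of all genes that fell. Among single members, signs changed for ZNF626 (0.019 with averaged probe sets; -0.0867 to 0.0024 without 1 array, above 0 without vehicle replicate 1), ZNF493 (-0.2998 to 0.0064 without 1 array, above 0 without AICAR replicate 1) and ZNF254 (-0.19 with averaged probe sets); the cause was not tested. The replicate block used numbers that share only a label (deviations correlated at -0.0679). It left 6 members lower, without ZNF708 and ZNF681, against 4.23% of all genes. It moved no other count by over 1.5 times. Of 193 settings over the 16 members, 155 kept direction and side of the threshold, 32 lost it and 2 gained it. The 193 include the looser threshold of 0.1 on the main fit for each member, under which a call cannot be lost. All 32 losses were among the 8 called members, the only ones with a call to lose. Leaving aside the threshold of 0.1, ZNF91 stayed called in 11 of 12 settings and ZNF681 in 4 of 12. The number of arrays, and signals near background for the 8 dim members, limit what can be detected.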
